A study of Mus musculus with 6 samples.

Results

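Spi1, Cebpa, Cebpb and Irf8 encode 4 transcription factors of the myeloid lineage, and CpG methylation across their loci was compared between blood progenitors lacking Tet2 and Tet3 and wild-type progenitors. The loci were taken by position on mouse build mm9: Spi1 at chr2:90895001-90970000, Cebpa at chr7:35890001-35965000, Cebpb at chr2:167490001-167600000 and Irf8 at chr8:123200001-123350000. They held 6189 listed CpGs in 408 windows of 1 kb, of 2335885 autosomal windows with a CpG, and 317 of the 408 had enough reads to be tested (51, 54, 84 and 128 in the Spi1, Cebpa, Cebpb and Irf8 loci). The assay was whole-genome bisulfite sequencing of sorted LSK cells of the bone marrow, which lack markers of mature lineages and carry Sca-1 and c-Kit, a fraction of stem cells and early progenitors. The Tet2/3 DKO group had 3 samples and the wild-type group (WT) had 3. They were named as biological replicates, without a statement of whether each was a single animal. Exact permutation p-values refer to the spread between these samples. Those of the window test also borrow the spread seen over all tested windows. The sources used here give neither strain, age and sex nor the way the alleles were deleted. The question was how the loss of Tet2 and Tet3 changes methylation in these cells.

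PU.1, the product of Spi1, and C/EBPα are DNA-binding factors that direct progenitors to the granulocyte and macrophage lineages, C/EBPβ takes part in the granulocyte response to infection, and IRF8 directs monocyte and dendritic cell development. Each gene is controlled by its promoter together with enhancers that can lie far from it. Tet enzymes oxidise 5-methylcytosine to 5-hydroxymethylcytosine, and bisulfite sequencing reads these forms alike, so a level here is the sum of both.

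The RefSeq sequences of the 250 bases before the gene starts of Cebpa, Cebpb and Irf8 are shown because every read over their CpGs was unmethylated. That of the predicted gene Gm35889 is shown because it lies in the outer part of the downstream Cebpa element described below. CpGs are in capitals, sequences come from the table of build GRCm38.p6, and they are written 5′ to 3′ on the strand of the gene.
Cebpa: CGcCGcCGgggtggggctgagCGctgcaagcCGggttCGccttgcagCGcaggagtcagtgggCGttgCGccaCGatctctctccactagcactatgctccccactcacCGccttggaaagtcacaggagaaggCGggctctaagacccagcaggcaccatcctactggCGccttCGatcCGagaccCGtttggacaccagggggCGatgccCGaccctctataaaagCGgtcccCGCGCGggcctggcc
Cebpb: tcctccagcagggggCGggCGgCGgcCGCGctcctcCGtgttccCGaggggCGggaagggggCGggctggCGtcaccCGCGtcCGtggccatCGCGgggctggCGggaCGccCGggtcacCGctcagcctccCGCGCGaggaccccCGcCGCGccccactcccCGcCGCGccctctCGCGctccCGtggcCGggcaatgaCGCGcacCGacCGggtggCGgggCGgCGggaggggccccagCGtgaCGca
Irf8: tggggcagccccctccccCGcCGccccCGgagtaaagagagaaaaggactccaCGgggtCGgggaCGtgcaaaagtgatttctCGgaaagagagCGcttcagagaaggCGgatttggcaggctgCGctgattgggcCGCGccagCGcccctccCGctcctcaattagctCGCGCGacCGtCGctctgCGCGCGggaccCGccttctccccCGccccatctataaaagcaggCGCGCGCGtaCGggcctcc
Gm35889: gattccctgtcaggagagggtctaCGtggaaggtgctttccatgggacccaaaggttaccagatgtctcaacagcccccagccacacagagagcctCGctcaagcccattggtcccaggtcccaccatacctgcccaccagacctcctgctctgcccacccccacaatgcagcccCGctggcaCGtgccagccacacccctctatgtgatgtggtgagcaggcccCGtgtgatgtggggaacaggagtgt
On mm9 these stretches lay at chr7:35904062-35904311 (plus strand) for Cebpa, chr2:167514165-167514414 (plus strand) for Cebpb, chr8:123260008-123260257 (plus strand) for Irf8 and chr7:35941856-35942105 (minus strand) for Gm35889. They were placed by the spacing of their CpGs, and all 29, 50, 38 and 7 CpGs of the 4 full RefSeq sequences were found in the deposited table. The matching gene starts were 35904312 for Cebpa, 167514415 for Cebpb and 123260258 for Irf8. The word TATAAA, the core of a TATA box, began 30 bases before the start of Cebpa and 31 bases before that of Irf8, and was not in the Cebpb stretch. Over both strands it was in 12.4% of 32851 promoter sequences of the same length. The cores of the motifs of PU.1 (GAGGAA, in 23.3% of all), C/EBP (TTGCNNAA, in 9.56%) and RUNX (TGTGGT, in 14.05%) were searched on both strands too. Among the 4 printed stretches TGTGGT was found in Gm35889, and the other cores in none.

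The bases before the 3 starts carried 22 CpGs for Cebpa, 41 for Cebpb and 29 for Irf8, and not a single methylated read was seen there in any sample. For Cebpa the count was 0 of 81, 117 and 69 reads in DKO and 0 of 37, 15 and 111 reads in WT. For Cebpb it was 0 of 101, 165 and 110 reads in DKO and 0 of 60, 61 and 93 reads in WT. For Irf8 it was 0 of 91, 212 and 38 reads in DKO and 0 of 92, 29 and 74 reads in WT. If each count were independent, counts of 0 would allow up to 1.42 to 7.89% in the DKO samples and 2.70 to 20.0% in the WT samples. A read counts at each CpG it covers, so the limits that hold are wider. They cover counting error only. In Gm35889 the 5 CpGs were partly methylated, at 11.9, 36.4 and 11.1% in DKO and 50, 40 and 50% in WT. Only 9 to 42 reads in DKO and 4 to 18 reads in WT stood behind these levels.

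With all reads summed, the groups overlapped at the wider promoters. Over 1 kb to each side of the start, the Cebpa promoter was at 0.133, 0.172 and 0.613% in DKO and 0, 0.404 and 0.322% in WT, with 206 CpGs and 412 to 1165 reads per sample. The Cebpb promoter was at 2.30, 6.08 and 7.92% in DKO and 7.46, 4.72 and 6.52% in WT, a difference of -0.80 points (two-sided exact permutation p = 0.8, where 3 against 3 samples cannot go below 0.1). Both stayed low in every sample. The Irf8 promoter was at 27.1, 13.8 and 16.5% in DKO and 14.8, 19.6 and 15.6% in WT, a difference of 2.47 ± 4.34 points (SE, exact permutation p = 0.8). DKO replicate 1 was the highest and the other 5 samples were mixed. With the CpGs read in every sample weighted alike, the Irf8 promoter was at 24.1, 21.6 and 28.1% in DKO and 18.3, 15.2 and 15.8% in WT, a difference of 8.16 points with all DKO samples higher (exact permutation p = 0.1). The way of counting thus decided whether the groups overlapped there. The same held for Cebpa, where the 60 CpGs read in every sample were at 0.439, 0.518 and 0.957% in DKO and 0% in each WT sample. When 3 reads or more were demanded of each Cebpa CpG, 5 CpGs remained and every sample was at 0%. Mitochondrial CpGs had higher levels than these, at 1.53, 1.86 and 1.75% in DKO and 1.37, 1.21 and 1.25% in WT. Those groups were separate in the same direction, and whether this bears on the small Cebpa levels was not tested. Within 500 bp of the Irf8 start the DKO samples were at 1.79, 0.422 and 6.94%. The WT samples had 0 methylated of 219, 163 and 176 reads. With each count taken as independent this allows up to 1.37, 1.84 and 1.70%, and more where a read covers several CpGs. These groups did not overlap (exact permutation p = 0.1), although DKO replicate 2 lay below all 3 of the WT limits.

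The start of Spi1 was not placed, and its locus is described by its stretches of low methylation. The most CpG-rich stretch under 10% (chr2:90910001-90911000) held the starts of Slc39a13, a zinc transporter gene, and of Gm39874, and was at 1.49, 0.181 and 0.617% in DKO and 0.439, 0 and 0% in WT. Among the rest the most CpG-rich stretch under 10% was chr2:90937001-90939000, with 36 CpGs, at 3.60, 3.46 and 6.67% in DKO and 5.36, 3.09 and 0% in WT (exact permutation p = 0.4). The stretch chr2:90923001-90924000, with 12 CpGs, was at 0, 0 and 0% in DKO and 3.70, 0 and 0% in WT. The centres of the last pair were 14.5 kb apart. In mouse, the upstream regulatory element of Spi1 is known to lie near 14 kb before its promoter, and whether these stretches are that promoter and that element was not established. The groups overlapped over each of the 3 stretches as a whole. The second window of the 36-CpG stretch (chr2:90938001-90939000) was at 10.4, 12 and 7.84% in DKO and 6.82, 0 and 0% in WT, a difference of 7.82 points that did not pass the quasi-binomial test (adjusted p = 0.590).

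Windows near those stretches differed in both directions. The window at chr2:90936001-90937000, just before the 36-CpG stretch, was at 57.6, 57.4 and 56.04% in DKO and 28.7, 47.4 and 39.1% in WT, a difference of 18.6 points (quasi-binomial test, adjusted p = 0.144). The run of 3 windows around the 12-CpG stretch (chr2:90922001-90925000) was at 32.1, 22.2 and 25.6% in DKO and 18.6, 10.8 and 10.6% in WT, a difference of 13.3 ± 3.92 points (SE). A single window at chr2:90918001-90919000 was at 28.5, 24.0 and 33.8% in DKO and 16.2, 10.8 and 11.5% in WT. These 3 places were named with their separation known, which is therefore a description. The run of 3 windows was separate only as a whole, and none of its single windows was. By window, separation with DKO above held in 9 of the 51 Spi1 windows, against 9.05% of all autosomal windows. The window after the Slc39a13 stretch (chr2:90911001-90912000) went the other way, at 76.4, 70.4 and 71.1% in DKO and 82.4, 75 and 80% in WT, with overlapping groups. None of the Spi1 windows passed the test across the genome.

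**Figure D1:**
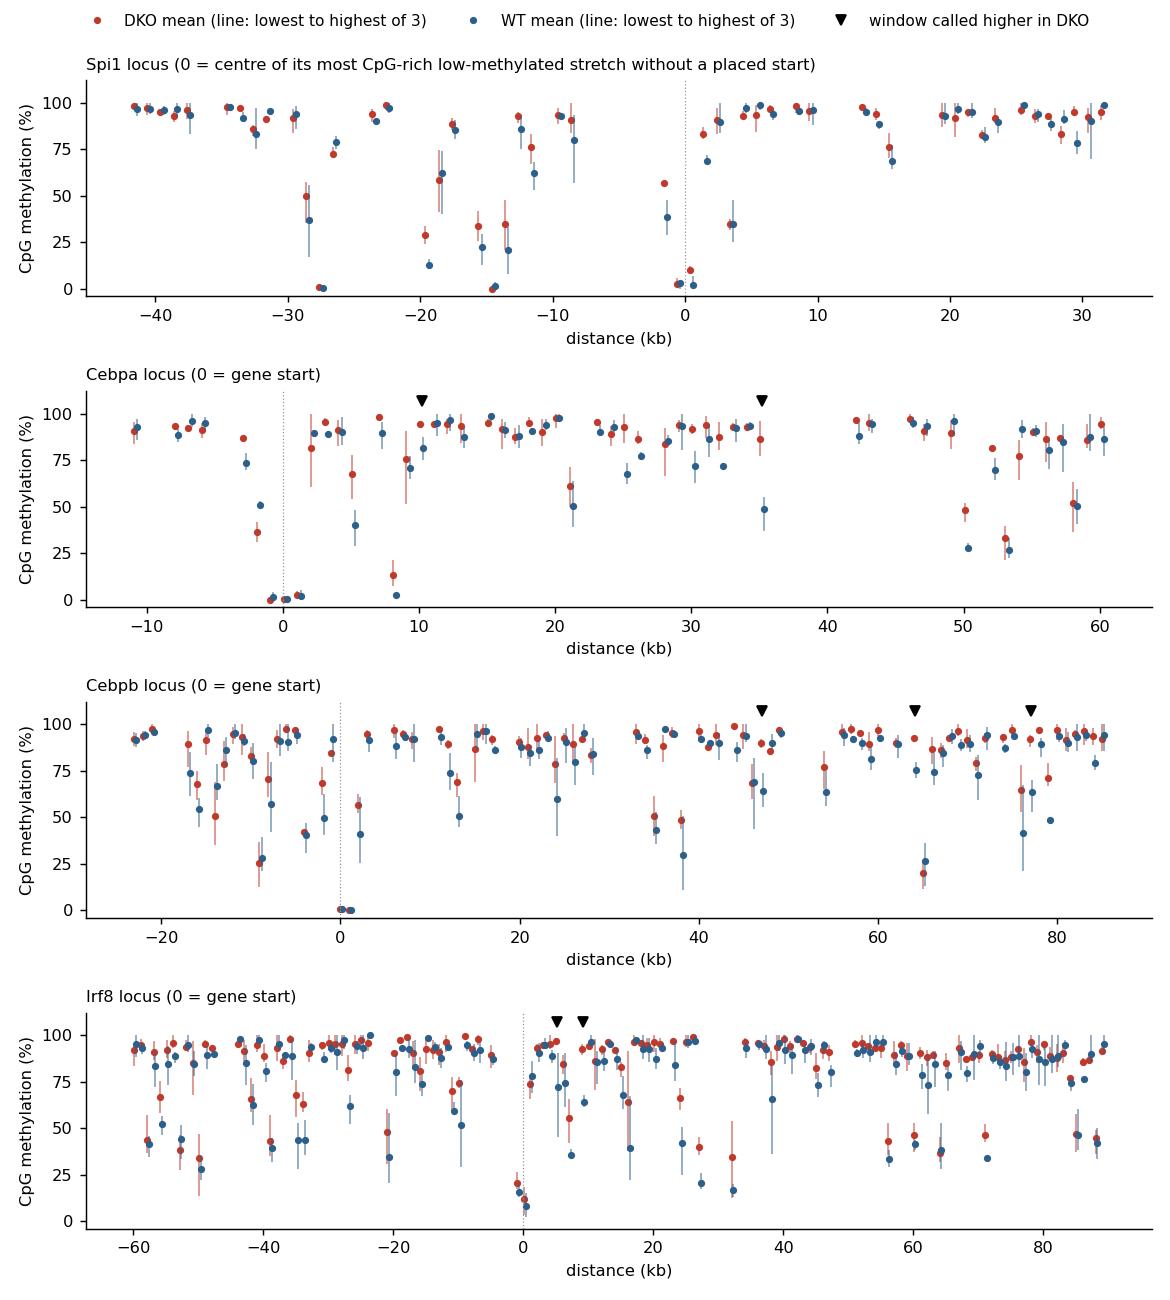
CpG methylation (percent) of each tested 1 kb window against distance (kb) in the 4 loci, for DKO (red) and WT (blue), with points for the mean of 3 samples and lines for the lowest to highest sample; triangles mark the 7 windows called higher in DKO. Both groups drop close to 0 at the starts of Cebpa and Cebpb, and the triangles lie 5.2 to 77.1 kb downstream of a gene start.

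Across the 317 tested windows, 7 were called higher in DKO and 0 lower, where a call needed an adjusted p under 0.05 in the quasi-binomial test and a difference of at least 10 points. The Cebpb locus held 3 of them, the Cebpa and Irf8 loci 2 each, and the Spi1 locus 0. Over all autosomal windows tested, 0.497% were called, 0.49% higher and 0.00723% lower. At an unadjusted p under 0.05 there were 60 windows in the loci, 6, 14, 17 and 23 in Spi1, Cebpa, Cebpb and Irf8, against 9.27% of all windows. The 7 calls rested on the full set of samples and on the test, as did calls over the genome. Leaving out any one of the 6 samples left 0 in the loci and 29 to 779 called higher over the genome, against 3798 with all samples. Limma on log2 ratios gave 0 in the loci and 0 over the genome. An alternative estimate of the dispersion, which was run first, gave 4, against 2166 higher and 21 lower over the genome. Fisher's exact test on pooled reads ignores how samples of a group vary. It gave 49 higher and 2 lower, against 43039 and 7035 of all 774732 windows. The differences of the 7 called windows stayed positive in each omission. That sign was fixed in advance, since in each of them all DKO samples lay above all WT samples, so it adds no support.

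In the Cebpa locus, the larger call lay 35.2 kb downstream of the start, at chr7:35939001-35940000. Its level was 84.7, 96.2 and 77.4% in DKO and 36.8, 55.3 and 53.8% in WT, a difference of 37.5 points (quasi-binomial test, adjusted p = 0.0155). The groups lay far apart. Of its 16 CpGs with at least 5 pooled reads in each group, 14 were higher in DKO, 1 was equal and 1 was lower. The other call, 10.2 kb downstream, was at 92.8, 94.6 and 94.9% in DKO and 82.6, 75 and 87.2% in WT, a difference of 12.5 points (adjusted p = 0.0491). It lay just inside the threshold, and its groups were separate. Of its 23 such CpGs, 12 were higher in DKO, 6 equal and 5 lower. In the Cebpb calls given below, by position, 7 of 13, 12 of 18 and 7 of 12 such CpGs were higher, and 2, 3 and 3 lower. In the Irf8 calls 15 of 19 and 7 of 12 were higher, and 1 was lower in each. These counts use the same reads as the calls and only describe them.

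The Cebpa element usually quoted at 37 kb downstream, a blood enhancer in mouse, lay next to the larger call and gave opposite signs at its 2 widths. Over 1 kb to each side it was at 9.60, 26.1 and 17.4% in DKO and 31.6, 24.6 and 26.2% in WT, a difference of -9.75 ± 5.20 points (SE, exact permutation p = 0.2). Within 500 bp it was at 1.67, 14.7 and 4.17% in DKO and 0% in each WT sample. There 7, 28 and 27 reads allow up to 42.9, 10.7 and 11.1%, and more where a read covers several CpGs. The outer part held the Gm35889 CpGs printed above, whose DKO levels lay below those in WT. By contrast, the 1 kb windows that overlap the wider interval had higher means in DKO, by 33.6, 5.54 and 6.35 points. None of these windows had enough reads or CpGs to be tested, and the last reaches past the interval. Only 18 CpGs and 19 to 125 reads per sample entered the wider interval, and with the same CpGs weighted alike in all samples its difference was -1.44 points. The direction at this element was therefore not settled at this depth.

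Other Cebpa windows were higher in DKO without passing the test. The low-methylated window 8.19 kb downstream was at 12.1, 21.1 and 7.29% in DKO and 1.92, 2.06 and 3.03% in WT. The window 50.2 kb downstream was at 51.8, 42.0 and 51.4% in DKO and 30.7, 26.3 and 26.0% in WT. The window 30.2 kb downstream, at 91.2, 94.3 and 89.2% in DKO and 73.7, 80 and 62.5% in WT, lay just outside the threshold with an adjusted p of 0.0714 in the quasi-binomial test. The 3 windows were named with their separation known; it held with DKO above in 15 of the 54 Cebpa windows, against the 9.05% of all windows. In the opposite direction, the window 1.81 kb before the start was at 36.9, 41.8 and 30.8% in DKO and 49.2, 49.6 and 53.2% in WT (difference -14.18 points, adjusted p = 0.376 in the quasi-binomial test). The window 54.2 kb downstream was at 80.9, 86 and 64.5% in DKO and 96.4, 86.7 and 91.9% in WT (difference -14.54 points, adjusted p = 0.605). These were the largest drops with separate groups in the 4 loci.

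In the Cebpb locus the calls lay 47.1, 64.1 and 77.1 kb downstream of the start, far from the unmethylated promoter. The window at 47.1 kb (chr2:167561001-167562000) was at 91.4, 92.2 and 87.1% in DKO and 55.4, 74.0 and 63.0% in WT, a difference of 26.1 points (quasi-binomial test, adjusted p = 0.0232). The window at 64.1 kb (chr2:167578001-167579000) was at 91.9, 93.7 and 92.2% in DKO and 79.6, 76.2 and 71.2% in WT, a difference of 16.9 points (adjusted p = 0.0493). The window at 77.1 kb (chr2:167591001-167592000) was at 94.5, 88.1 and 93.3% in DKO and 70.2, 53.0 and 68.2% in WT, a difference of 28.2 points (adjusted p = 0.0158). All 3 were near full methylation in DKO and partly methylated in WT. The window at 79.1 kb, with an adjusted p of 0.0608, was the nearest outside the threshold, at 66.7, 79.5 and 67.0% in DKO and 48.6, 49.0 and 48.8% in WT. No distal Cebpb element had been listed, so none is named here.

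In the Irf8 locus the calls lay 5.24 and 9.24 kb downstream of the start. The window at 9.24 kb (chr8:123269001-123270000) was at 92.3, 95.5 and 89.3% in DKO and 64.1, 67.6 and 61.3% in WT, a difference of 28.0 points (quasi-binomial test, adjusted p = 0.0265). The window at 5.24 kb (chr8:123265001-123266000) was at 97.6, 97.8 and 95.5% in DKO and 45.3, 81.2 and 90.2% in WT, a difference of 24.7 points (adjusted p = 0.0176). Its WT samples differed among themselves more than the groups did, and without WT replicate 1 the difference was 11.2 points. Between these calls, the window 7.24 kb downstream was at 65.6, 42.2 and 58.6% in DKO and 38.7, 33.9 and 34.3% in WT.

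**Figure D2:**
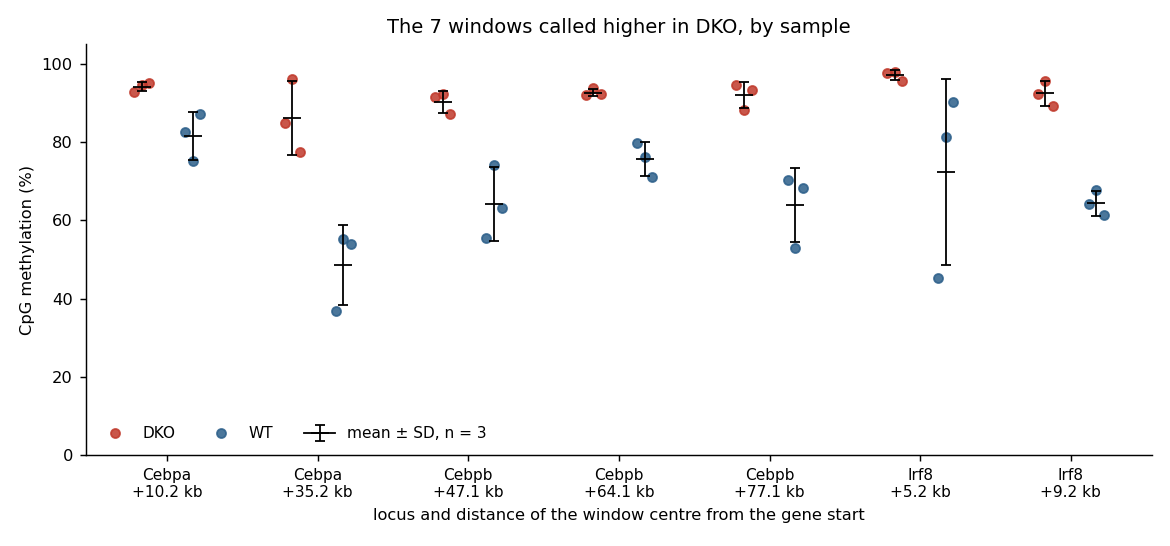
CpG methylation (percent) by sample in the 7 windows called higher in DKO, with DKO (red) left of WT (blue) and black marks for mean ± SD of 3 samples; labels give the distance from the gene start. The DKO samples lie between 77.4 and 97.8%, and in each window all 3 are above the 3 WT samples.

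The Irf8 elements known in mouse lie 50 kb upstream and 32, 41 and 56 kb downstream. Over 1 kb to each side, the main interval, none separated the groups with all reads summed. The one at 56 kb did so within 500 bp. Within 500 bp of that point the level was 74.0, 67.1 and 76.2% in DKO and 53.2, 56.9 and 55.6% in WT, a difference of 17.2 ± 2.95 points (SE, exact permutation p = 0.1). Over 1 kb to each side it was 49.4, 61.3 and 60.4% in DKO and 39.1, 51.7 and 48.1% in WT, where the groups overlapped (difference 10.7 points, exact permutation p = 0.2). At 32 kb the level over 1 kb to each side was 73.2, 51.9 and 50% in DKO and 20.2, 40.5 and 51.2% in WT, a difference of 21.0 ± 11.7 points (exact permutation p = 0.2). Its samples overlapped, and the difference was 12.5 points without WT replicate 1. Over the 10 CpGs read in every sample it was 14.7 points with all DKO samples higher (exact permutation p = 0.1), and with these CpGs weighted alike it was 8.55 points with overlap.

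The remaining Irf8 elements did not separate the groups at either width, and their levels over 1 kb to each side follow. At 50 kb upstream the level was 48.5, 76.8 and 72.7% in DKO and 58.9, 62.8 and 55.6% in WT (difference 6.89 ± 9.06 points, exact permutation p = 0.5). At 41 kb it was 98.3, 95.9 and 93.3% in DKO and 94.8, 83.6 and 95.4% in WT (difference 4.597 ± 4.12 points, exact permutation p = 0.4). The element at 41 kb was thus methylated in nearly all reads of both groups, unlike the other 3.

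**Figure D3:**
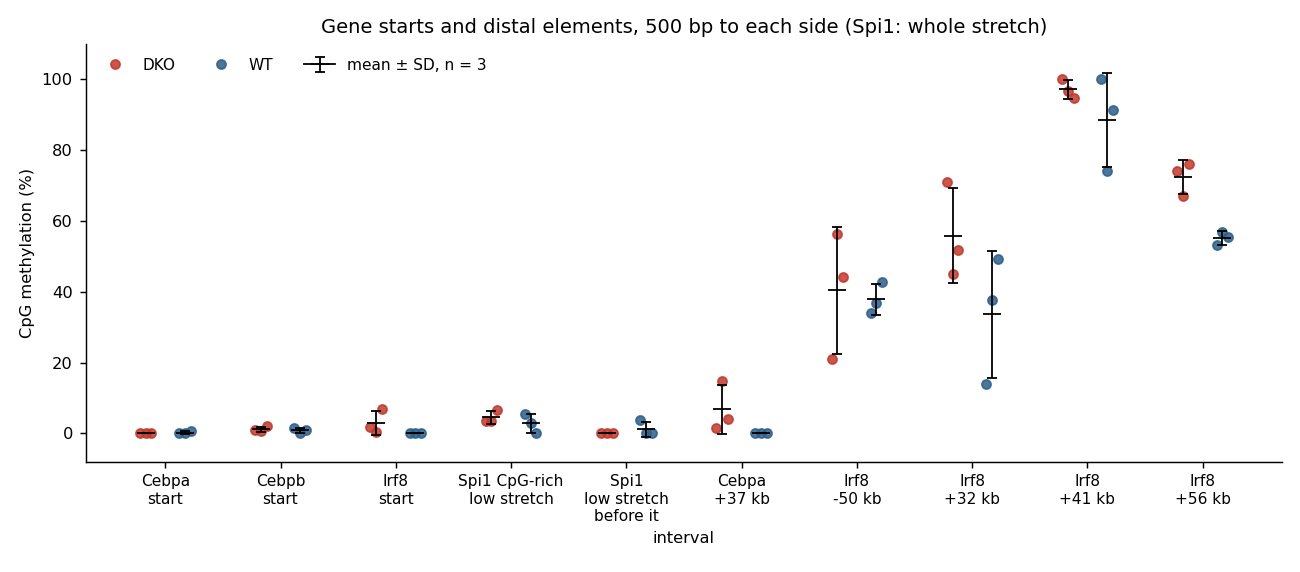
CpG methylation (percent) by sample within 500 bp of the gene starts and distal elements, and over the whole of the Spi1 stretches, with DKO (red) left of WT (blue) and black marks for mean ± SD of 3 samples. Starts lie at or near 0 in both groups, and at Irf8 +56 kb the DKO samples (67.1 to 76.2%) lie above the WT samples (53.2 to 56.9%).

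With the calls included, the windows of each locus leaned towards higher levels in DKO, as did those of the genome. The DKO mean was higher in 228 of the 317 windows (71.9%, against 58.2% of all autosomal windows tested), and the median difference was 2.76 points (0.928 over all windows). By locus the DKO mean was higher in 66.7% of windows in Spi1, 61.1% in Cebpa, 75% in Cebpb and 76.6% in Irf8. The median was 1.18 points in Spi1, 1.42 in Cebpa, 2.58 in Cebpb and 3.64 in Irf8. By these measures Spi1 and Cebpa lay nearer to all autosomal windows than Cebpb and Irf8 did. All DKO samples exceeded all WT samples in 60 windows (18.9%), against 9.05% of all windows, and the reverse held in 8 (2.52%), against 3.75%. Besides the calls, promoters and elements, the 5 windows per locus with the largest difference among those whose groups did not overlap were 18 higher in DKO, by 12.8 to 27.8 points, and 2 lower. Those 2 were a Spi1 window at chr2:90966001-90967000 (-8.41 points) and a Cebpb window 36.1 kb downstream (-9.01 points), both smaller than the Cebpa drops given above.

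The size of the difference went with how methylated a window was. Part of this is set by the classes, which use the mean over both groups. Levels have a floor and a ceiling, so a mean near either leaves less room for a difference. In the 11 windows with a mean level under 10% the median difference was 0.438 points (0.510 over all such windows of the genome). In the 30 windows at 10 to 50% it was 7.07 points (5.16), and in the 42 windows at 50 to 80% it was 14.2 points (5.77). In the 234 windows at 80% or more it was 2.24 points (0.606). Of the 7 calls, 4 lay at 50 to 80%, where 2.73% of all windows were called higher, and 3 at 80% or more, where 0.0772% were. In the 42 windows at 50 to 80% the DKO mean was higher in 37 (88.1%, against 71.7% of all windows of that class), and in the Irf8 locus it was higher in 16 of 17.

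**Figure D4:**
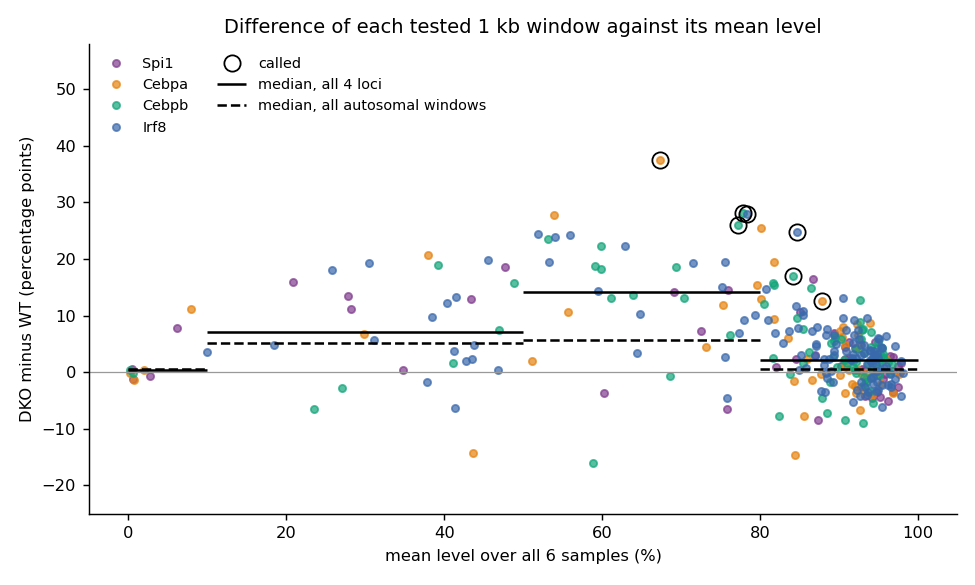
Difference between DKO and WT means (percentage points) of each tested 1 kb window against its mean level over all 6 samples (percent), colored by locus, with circles on the 7 called windows; solid and dashed lines give the median in each level class for the 4 loci and for all autosomal windows. The solid line is highest at 50 to 80%, at 14.2 points, where the dashed line is at 5.77.

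Runs of adjacent windows under 50% gave 30 low-methylated stretches, 5 in Spi1, 4 in Cebpa, 6 in Cebpb and 15 in Irf8. The DKO mean was higher in 24 of them, with a median difference of 5.86 points. All DKO samples exceeded all WT samples in 8 (3 in Spi1, 2 in Cebpa and 3 in Irf8), and the reverse held in 0. Counted by window, the same separation held in 8 of the 41 low-methylated windows of the loci (19.5%), near the 15.9% of such windows over the genome, and the DKO mean was higher in 75.6%, against 68.7%. The 3 separate stretches in Irf8 were 7.24, 27.2 and 71.2 kb downstream of the start. At 27.2 kb the level was 45.5, 35.4 and 39.5% in DKO and 25.9, 17.1 and 19.6% in WT, and at 71.2 kb it was 42.6, 44.7 and 52.3% in DKO and 34.7, 33.9 and 34.1% in WT.

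Windows were classed, after the data were seen, as low-methylated (under 50%), bordering such a window, or other. Of the 41 low-methylated windows of the loci 0 were called higher, against 1.99% of such windows over the genome, of the 48 bordering windows 1 was (1.11% over the genome), and of the 228 others 6 were (0.33% over the genome). In the 228 others the pooled level was 90.1, 90.2 and 89.3% in DKO and 84.5, 85.05 and 85.3% in WT, a difference of 4.88 ± 0.364 points (SE, exact permutation p = 0.1). Over the genome, windows of this class had a difference of 1.25 ± 0.169 points and were as fully separate.

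Summed over whole loci, the reads separated the groups in Irf8 and not in the other 3. Irf8 was at 82.8, 81.2 and 82.1% in DKO and 75.2, 75.8 and 76.5% in WT, a difference of 6.19 ± 0.594 points (SE, exact permutation p = 0.1). Spi1 was at 77.2, 73.5 and 72.5% in DKO and 72.7, 69.98 and 71.0% in WT (difference 3.16 points, p = 0.2 by the exact test). Cebpa was at 66.5, 62.9 and 67.4% in DKO and 62.9, 62.6 and 59.7% in WT (difference 3.86 points, p = 0.2 by the exact test). Cebpb was at 73.5, 73.2 and 74.0% in DKO and 70.8, 76.6 and 73.3% in WT (difference 0.00169 points, p = 1 by the exact test).

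Counting the CpGs read in every sample with equal weight gave higher levels in all DKO samples at all 4 loci. The differences were 2.92 points in Spi1, 4.28 in Cebpa, 5.02 in Cebpb and 5.26 in Irf8 (exact permutation p = 0.1 each). Of 23869 autosomal bins of 100 kb measured the same way, 31.7% showed the same full separation with DKO above, and their median difference was 0.816 points, with a 90th percentile of 2.96. Cebpb moved most between the ways of counting. Its windows under 10% took 14.2, 14.3 and 14.03% of the reads of the locus in DKO and 10.1, 7.56 and 8.44% in WT (exact permutation p = 0.1), and their part in the difference between the results was not tested.

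**Figure D5:**
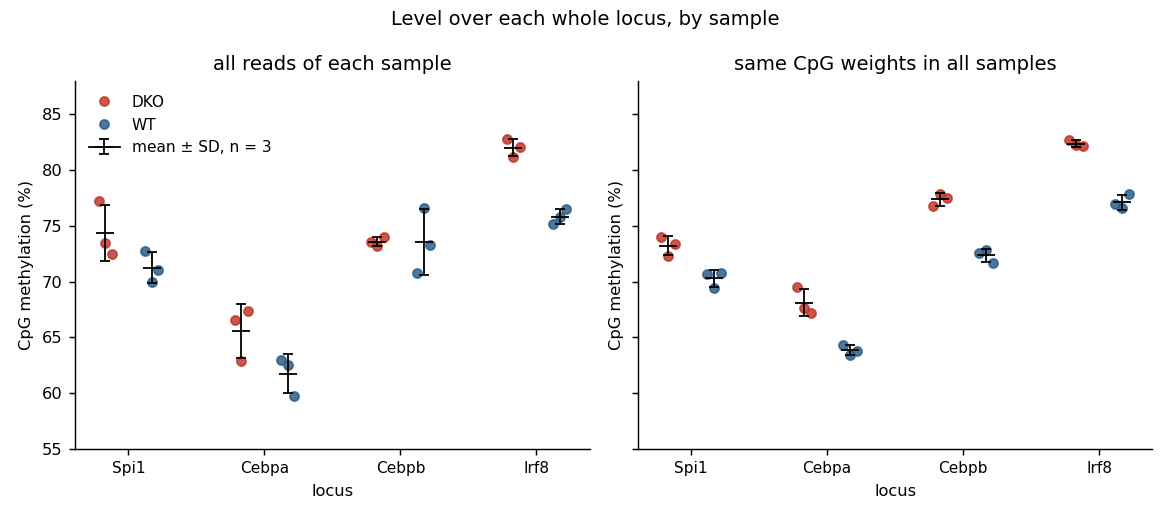
CpG methylation (percent, axis cut at 55) of each whole locus by sample, with DKO (red) left of WT (blue) and black marks for mean ± SD of 3 samples, from all reads (left) and with the CpGs read in every sample weighted alike (right). In the right panel the DKO samples lie above the WT samples at all 4 loci, and in the left panel only at Irf8.

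The other genes of the myeloid network were followed at their starts in a list of 40, of which 27 were placed and tested. Within 1 kb of a start, 0 of the 27 had a window called higher in DKO, against 1.66% of all 14824 genes tested, and 1 had a window called lower (26 of all genes tested). By limma 0 had a call, where 0 windows of the whole genome were called. By Fisher's exact test 4 had one, where 43039 windows of the genome were called higher and 7035 lower. The lower window belonged to Zeb2, a repressor of the zinc-finger homeobox family that acts in blood cell differentiation, and was at 21.1, 15.4 and 6.67% in DKO and 30.9, 36.7 and 39.8% in WT (quasi-binomial test, adjusted p = 0.0395). Within 3 kb, Gfi1 and Runx1 had windows called higher, 2 of the 27 against 3.09% of all genes. Gfi1 encodes a repressor needed by granulocytes, and had adjacent called windows. The one at chr5:108150001-108151000 was at 73.7, 96.5 and 69.5% in DKO and 64.9, 46.7 and 55.3% in WT (quasi-binomial test, adjusted p = 0.0285). The one at chr5:108151001-108152000 was at 53.1, 84.2 and 62.1% in DKO and 36.5, 33.3 and 12% in WT (adjusted p = 0.0475). Runx1 encodes a master factor of blood formation, and its window at chr16:92700001-92701000 was at 91.1, 86.4 and 95.9% in DKO and 73.2, 64.7 and 64.4% in WT (adjusted p = 0.0223).

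The samples as a whole differed in depth between the groups. The DKO samples held 83560585 to 111763872 read calls at CpGs, or 4.09 to 5.46 per CpG, and the WT samples 70815948 to 72747248, or 3.46 to 3.56 per CpG, so counting error was smaller in DKO. The autosomal level was 80.7 to 82.3% in DKO and 80.5 to 81.1% in WT. The loss of DNA was visible on the chromosomes of both targeted genes: a segment of chromosome 3 had 0 reads in each DKO sample and 109 to 165 in WT, and a segment of chromosome 6 had 14, 0 and 0 reads in DKO and 169 to 231 in WT. Expression of the 4 genes was not measured in these data, and the share of each cell type within the LSK gate was not known.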

How the data were processed

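The authors deposited a table of methylated and total read counts per CpG and sample, not normalised and not pooled. The submitters' processing notes name BSMAP 2.74 and mm9. How duplicates were removed and reads filtered is not given in the sources used. Per the labels' protocols, sheared, adapter-ligated DNA was bisulfite-treated and amplified. A level is methylated over all reads, in percent; a read counts at each CpG it covers. Reads carry no molecular identifiers, so limits from counts cover counting error only. These limits treat each count as independent and are too narrow where a read covers several CpGs.

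Reads were summed in 1 kb autosomal windows. Windows holding 3 CpGs or more and 20 reads or more per sample (774732) were tested by a quasi-binomial model with dispersion moderated across windows (limma's squeezeVar method, floor 1) and Benjamini-Hochberg adjustment, in Python 3.11.15 with numpy 2.4.6 and scipy 1.17.1. The dispersion was first estimated from the deviance. The Pearson estimate replaced it because its 3798 higher and 56 lower calls equalled those of an earlier analysis of this table; the deviance estimate gave 2166 and 21 and is kept as an alternative. The test was run on simulated data. Single values were compared by two-sided exact permutation.

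Gene starts were placed on mm9 by matching the CpG spacing of RefSeq promoter sequences (GRCm38.p6) to the table, for 18172 of 18519 sequences with at least 6 CpGs. No sequence was used for Spi1. Distances of distal elements are those usually quoted for mouse. Windows named are the calls, those of promoters and elements, and the 5 per locus with the largest difference among windows whose groups did not overlap; windows in or next to low-methylated stretches, just outside the threshold or with the largest drops were chosen after their values were seen. Members, lists and tests were chosen with earlier results of these data known. Alternatives were other read minima, window sizes, tests, weights and intervals, and each sample left out.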

Additional observations from a re-analysis of the deposited data

How the results depend on the processing

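The 7 window calls became 0 with at least 10 or 40 reads, with no read minimum, with 500 bp windows, with limma, with a replicate block, with reads thinned to the lowest sample, and without any one sample (0 to 0). They became 4, all among the 7, with the deviance in place of the Pearson dispersion, and 51 with Fisher's exact test. They stayed at 7 with no minimum difference. Over the genome, no read minimum, 500 bp windows, limma, the block and thinning gave 0 calls too. At least 10 and at least 40 reads gave 303 and 269 windows called higher over the genome, and 1 and 2 lower. Thinning and the omissions for counts of windows and stretches were chosen after seeing the data. So was the Pearson dispersion of the main setting, as the deviance was run first. With the deviance, the quasi-binomial test left out Cebpb at 64.1 kb (adjusted p = 0.0898), Cebpa at 10.2 kb (0.0900) and Irf8 at 9.2 kb (0.0531). Same-numbered samples did not deviate together (correlations of 0.00332 to 0.00359), so the block tests a shared number only.

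Differences in points that changed sign were those near 0 or thinly read. The Cebpb locus ranged from -1.40 to 1.53 over the omissions. The Cebpa promoter was at -0.205 within 500 bp and ranged from -0.0898 to 0.150. The Cebpb promoter was at 0.0471 with equal CpG weights and 0.345 within 500 bp, and ranged from -2.04 to 0.771. The Irf8 promoter ranged from -1.54 to 5.15 over the omissions, and was at 5.71 over CpGs read in every sample, 8.16 with equal CpG weights and 8.85 with at least 3 reads per CpG. The Cebpa +37 kb element was at 6.85 within 500 bp. The cause was not tested.

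Low-methylated stretches numbered 8 in Cebpa at a limit of 70%, 3 and 14 in Cebpb at 30 and 70%, and 2 in Irf8 at 30%. Windows whose groups did not overlap, in either direction, ranged over the omissions over 13 to 19 in Spi1, 23 to 27 in Cebpb and 31 to 44 in Irf8; smaller groups overlap less often by construction. The myeloid genes with a call, 1 within 1 kb, became 3 within 3 kb, 2 with no minimum difference and 4 with Fisher's exact test. They became 0 with at least 10 or 40 reads, no read minimum, limma, the replicate block, thinning, the deviance dispersion and in each omission (0 to 0).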
